A study of Rattus norvegicus with 6 samples.

Results

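Sarcomeric scaffold proteins were examined at the level of their transcripts in the failing right ventricle (RV) of the SuHx rat. The set was chosen by gene name, with earlier results of these data known. It lists 9 genes of the giant filament, the M-band, the Z-disc and the myosin-binding protein C family: Ttn, Myom1, Myom2, Myom3, Nebl, Mybpc2, Mybpc3, Tcap and Actn2. Of these, 6 were found among the 12958 named genes of the expression table, namely Actn2, Nebl, Myom2, Myom3, Mybpc2 and Mybpc3. All 6 passed the filter on low values, together with 10725 genes in all, and none was listed at 0 in any library. Ttn, Myom1 and Tcap are not analysed here. RNA sequencing covered 3 SuHx RV libraries at 8 weeks and 3 control RV libraries at week 0, all from male Sprague-Dawley rats. The rats were adults per the methods, and no age in weeks is used here. SuHx rats were injected with SU5416, which blocks the receptor of vascular endothelial growth factor, exposed to hypoxia and then returned to normal air, so the load on the RV comes from the pulmonary circulation. Control rats were healthy and were taken at baseline, and there is no control at 8 weeks, so the model cannot be told apart from 8 weeks of growth. The SuHx libraries are lettered A, B and C, because the labels do not tie their columns to numbered rats. The labels do not state in words that each library is a separate animal, and each p-value rests on the spread among libraries alone.

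The sarcomere, the contractile unit of heart muscle, is bounded by Z-discs and centred on the M-band. α-Actinin (Actn2) cross-links thin filaments of neighbouring sarcomeres at the Z-disc, where nebulette (Nebl), a short cardiac relative of nebulin, binds actin. Titin (Ttn) spans from the Z-disc, where telethonin (Tcap) caps its end, to the M-band, where myomesins (Myom1, Myom2 and Myom3) tie it to the thick filaments. Myosin-binding protein C lies on the thick filament and tunes cross-bridges. Mybpc3 encodes the cardiac form and Mybpc2 the form of fast skeletal muscle.

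Values are counts per gene that the authors normalised with DESeq2, and a log2 fold change is the difference of mean log2(normalised count + 1), SuHx minus control. Because of the added 1, the scale compresses changes of scarce transcripts. A gene was called at an adjusted p under 0.05 in limma, with Benjamini-Hochberg adjustment over all tested genes. Normalised counts summed to 12754296 to 18249330 in SuHx libraries and to 11607609 to 12393415 in control libraries. The depth in reads reached in each library is not given. Transcripts with mitochondrial gene names took 50.9% to 62.2% of the total in SuHx and 47.8% to 51.9% in control. Control 1 held some atrial transcripts that the other controls almost lacked, among them Bmp10 at 2363 normalised counts and 0 in the other 5 libraries. Myl4 stood at 9629, 15.6 and 40.2 in controls 1, 2 and 3. Myl7, Sln and Mybphl stood at 1353, 560 and 1028 in control 1, against at most 5.21 in controls 2 and 3. Dkk3, Tbx5 and Stard10 were present in every control and were highest in control 1. Kcna5 went the other way among the controls, at 42.6, 125 and 204 in controls 1, 2 and 3. The natriuretic peptide Nppa stood at 15462, 15802 and 17508 in SuHx, against 36639, 57.3 and 43.1 in controls 1, 2 and 3. None of the 10 atrial markers was called in limma (1 was lower at an unadjusted p under 0.05). The ventricular markers were present in every library, with all 10 tested and summed levels of 628193 to 692292 in SuHx and 822638 to 961931 in control. The sum holds Myh6, the 1 marker of the list that was called lower, with means of 148846 in SuHx and 361403 in control. The median log2 fold change of the list was 0.027, so the lower sum does not describe the list as a whole. Control 3 was low in long transcripts, as described with the values per library. In bulk tissue, fewer cells of a type and less RNA per cell cannot be told apart.

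Of the 6 scaffold genes, Mybpc2 was higher in SuHx RV, Myom3 was lower, and Actn2, Nebl, Myom2 and Mybpc3 did not pass the test. Over all tested genes, 1.55% were called higher and 0.671% lower. A stricter call, an adjusted p under 0.01 with a fold above 2, was met by 0.27% of tested genes and by 0 of the 6 in limma, with 2 of 6 at an unadjusted p under 0.05. SuHx and control libraries did not overlap for Mybpc2, Myom3 and Mybpc3, against 24.6% of all tested genes.

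**Figure D1:**
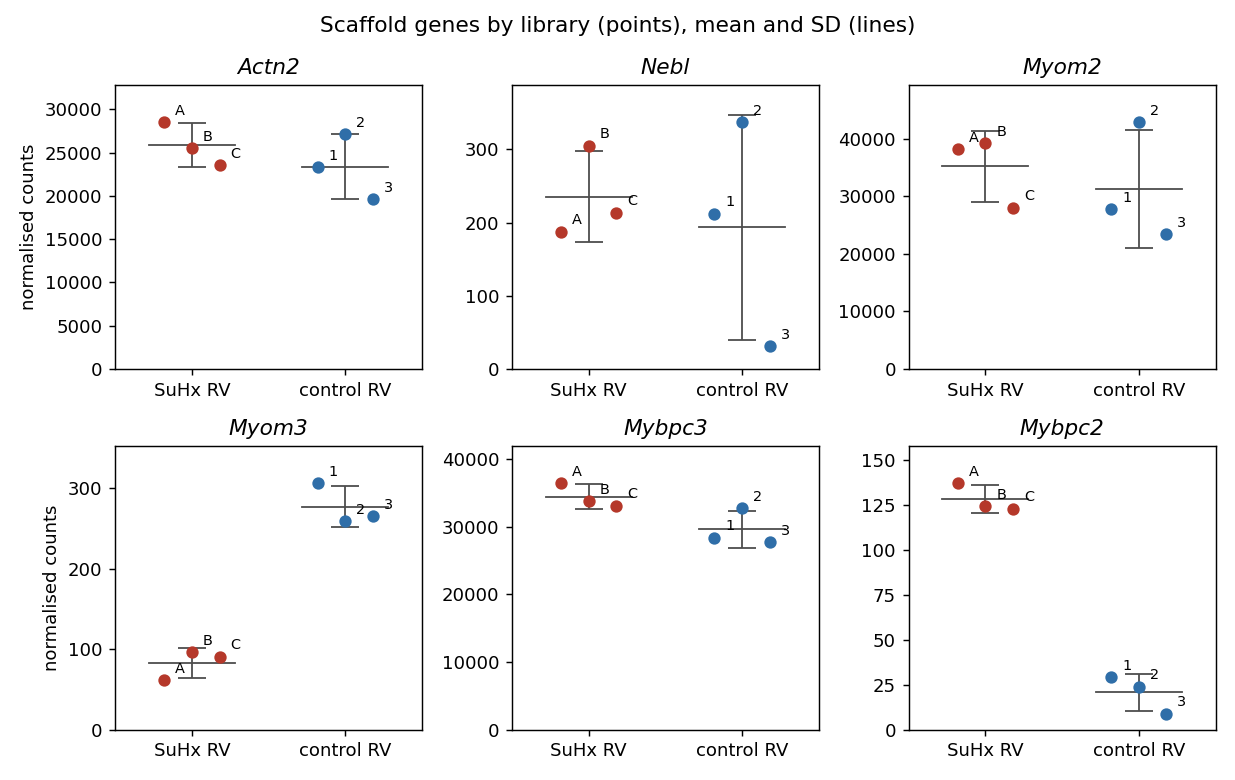
Normalised counts (vertical axes, each from 0) of the 6 scaffold genes in SuHx RV (red, libraries A to C) and control RV (blue, libraries 1 to 3), with the group mean (wide line) and SD (short lines). Mybpc2 lies between 123 and 137 in SuHx and between 8.93 and 29.2 in control, Myom3 is lower in all SuHx libraries, and the groups overlap for Actn2, Nebl and Myom2.

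Mybpc2, the fast skeletal myosin-binding protein C, was 6.20 times as abundant in SuHx RV as in control RV by the ratio of means. It reached 137, 125 and 123 normalised counts in the SuHx libraries A, B and C, against 29.2, 23.96 and 8.93 in controls 1, 2 and 3. The SuHx libraries lay close together and all above the controls, among which control 3 was the lowest. The means were 128 ± 7.92 in SuHx RV and 20.7 ± 10.5 in control RV (SD, n = 3 per group). The log2 fold change was 2.72 (standard error, SE, 0.41, limma adjusted p = 0.0261), which placed Mybpc2 at rank 95 of all tested genes. The exact permutation test of 3 against 3 libraries gave p = 0.1, two-sided, the smallest it can give. The limma call ended without SuHx A (adjusted p = 0.106), SuHx B (adjusted p = 0.0964), SuHx C (adjusted p = 0.127) or control 2 (adjusted p = 0.0554). The log2 fold change was 3.04 without control 1 (limma adjusted p = 0.0283) and 2.23 without control 3 (limma adjusted p = 0.00523).

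Mybpc3, the cardiac form, differed little between the groups. It stood at 36518, 33783 and 33139 normalised counts in the SuHx libraries A, B and C, against 28409, 32715 and 27755 in controls 1, 2 and 3. Each SuHx library lay above each control, although SuHx C and control 2 were close to each other. The means were 34480.2 ± 1794 in SuHx RV and 29627 ± 2695 in control RV (SD, n = 3 per group). The log2 fold change of 0.22 (SE 0.16) did not pass the test (limma adjusted p = 0.529), and it was -0.10 after scaling every library to an equal total. Within each library, which removes the scaling, the log2 ratio of Mybpc2 to Mybpc3 was -8.06 ± 0.014 in SuHx RV and -10.56 ± 0.81 in control RV (SD, n = 3 per group). The ratio was higher in SuHx by 2.502 log2 units (two-sided exact permutation p = 0.1, the lowest it can give, and 0.15 after Benjamini-Hochberg adjustment over 3 ratios). These ratios of counts are not corrected for gene length, so only their difference between groups can be read. How reads that match several members of a gene family were divided is not given in the sources used here.

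The promoters of Mybpc2 and Myom3 are shown because these are the scaffold genes that passed the test. They come from RefSeq on the rat assembly GRCr8, run from 250 bases before to 50 bases after the gene start, and are written 5′ to 3′ on the gene's strand, with motif matches in capitals. Positions are counted from the start, whose first base is 1, with no 0. The expression data do not measure these sequences, and a match is a description of letters.
Mybpc2, chr1:104154052-104154351, minus strand: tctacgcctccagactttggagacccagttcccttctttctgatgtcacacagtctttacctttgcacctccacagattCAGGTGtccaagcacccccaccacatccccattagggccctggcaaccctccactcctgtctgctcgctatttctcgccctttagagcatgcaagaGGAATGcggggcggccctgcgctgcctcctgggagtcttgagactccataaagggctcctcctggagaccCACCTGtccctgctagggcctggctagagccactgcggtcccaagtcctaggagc
Myom3, chr5:153276056-153276355, plus strand: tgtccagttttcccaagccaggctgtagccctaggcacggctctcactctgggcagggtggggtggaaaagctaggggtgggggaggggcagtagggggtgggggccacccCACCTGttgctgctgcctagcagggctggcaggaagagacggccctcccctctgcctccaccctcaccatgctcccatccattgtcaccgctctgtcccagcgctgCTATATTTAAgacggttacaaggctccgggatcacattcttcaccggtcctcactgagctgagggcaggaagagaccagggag
The Mybpc2 promoter held E-boxes (CANNTG, the letters read by myogenic basic helix-loop-helix factors, which are the same on both strands) at -171 to -166 and at -5 to 1. It also held an MCAT element (CATTCC, a site type of TEAD factors in muscle genes) on the other strand at -75 to -70, where it reads GGAATG. The Myom3 promoter held an E-box at -139 to -134 and a MEF2 element at -33 to -24, the site type of MEF2 factors, and no matches overlapped. Searched on both strands of 33469 rat promoters of this length, an E-box was present in 72.1%, MCAT in 14.2%, a GATA site (GATAA) in 26.5%, a MEF2 element in 3.29% and a CArG box, the site type of serum response factor, in 1.64%. Promoter entries matched 5 of the 6 genes. A MEF2 element was also matched in the promoter of Mybpc3, whose transcript did not pass the test, and was not matched in those of Actn2, Nebl and Mybpc2. MCAT was matched only in Mybpc2 among these 5 promoters, and a CArG box only in Nebl.

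Myom3, a myomesin of the M-band described in skeletal muscle, was lower in SuHx RV, at 0.299 of the control mean. It stood at 61.8, 96.2 and 90.6 normalised counts in the SuHx libraries A, B and C, against 307, 259 and 265 in controls 1, 2 and 3. The highest SuHx library lay far below the lowest control, and SuHx A was the lowest of all. The means were 82.9 ± 18.5 in SuHx RV and 277 ± 25.9 in control RV (SD, n = 3 per group). The log2 fold change was -1.75 (SE 0.21, limma adjusted p = 0.0125), at rank 30 of all tested genes, and the exact permutation test gave its smallest p of 0.1, two-sided. The call ended without SuHx C (adjusted p = 0.0636, log2 fold change -1.83). It held without control 1 (log2 fold change -1.68, limma adjusted p = 0.0366) and without control 3 (-1.78, adjusted p = 0.0148). Without both of these together, which leaves control 2 as the only control, the log2 fold change was -1.66.

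Myom2, which encodes the M-protein of heart and fast muscle, did not differ beyond the spread between libraries. It stood at 38276, 39321 and 28042 normalised counts in the SuHx libraries A, B and C, against 27749, 42953 and 23415 in controls 1, 2 and 3. The highest value and the lowest were both in control, so the groups overlapped. The log2 fold change was 0.20 (SE 0.27, limma adjusted p = 0.746), with means of 35213 ± 6232 in SuHx RV and 31372 ± 10260.5 in control RV (SD, n = 3 per group). It turned to -0.12 after scaling to equal totals. The log2 ratio of Myom3 to Myom2 within a library, added after the values were seen in place of ratios to Myom1, was -8.72 ± 0.50 in SuHx RV and -6.77 ± 0.51 in control RV (SD, n = 3 per group). It was lower in SuHx by a difference of -1.95 (two-sided exact permutation p = 0.1, the lowest it can give, and 0.15 after Benjamini-Hochberg adjustment over 3 ratios).

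At the Z-disc, neither gene passed the test. Actn2 stood at 28533, 25487 and 23547 normalised counts in the SuHx libraries A, B and C, against 23292, 27145 and 19654 in controls 1, 2 and 3. The groups overlapped, and the log2 fold change was 0.15 (SE 0.18, limma adjusted p = 0.708), with means of 25856 ± 2513 in SuHx RV and 23364 ± 3746 in control RV (SD, n = 3 per group). Its sign changed after scaling to equal totals (-0.17). Nebl stood at 188, 305 and 214 normalised counts in the SuHx libraries A, B and C, against 212, 338 and 30.8 in controls 1, 2 and 3. Control 3 alone was low, and the other 5 libraries were mixed between the groups. The means were 236 ± 61.7 in SuHx RV and 193 ± 154 in control RV (SD, n = 3 per group), and the log2 fold change of 0.81 (SE 0.80, limma adjusted p = 0.642) turned to -0.21 without control 3. The log2 ratio of Nebl to Actn2 differed by 0.66 (exact permutation p = 0.9, two-sided) and by -0.25 without control 3.

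Centred on its own mean over the 6 libraries, each gene could be followed from library to library. Control 3 was the lowest library for Actn2, Nebl, Myom2, Mybpc3 and Mybpc2, and not for Myom3. Its centred log2 values were -2.46 for Nebl, -2.34 for Mybpc2, -0.47 for Myom2, -0.31 for Actn2 and -0.20 for Mybpc3, against 0.82 for Myom3. Control 2, by contrast, was the highest library for Nebl and Myom2. An index of long transcripts was formed in each library as the median centred log2 value of 41 genes with long transcripts, none of them a scaffold gene of the set, minus that of 67 ribosomal protein genes. It was 0.032, 0.41 and 0.50 in SuHx A, B and C, against -0.078, -0.047 and -0.74 in controls 1, 2 and 3. SuHx libraries were all above the controls, with means of 0.31 ± 0.25 in SuHx RV and -0.29 ± 0.39 in control RV (SD, n = 3 per group, two-sided exact permutation p = 0.1, the lowest it can give). Control 3 was thus low both in the index and in 5 of the scaffold genes. Without it, the log2 fold change of Mybpc2 remained positive, that of Nebl became negative, and that of Myom3 was -1.78. The part of the index in the other values was not tested.

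**Figure D2:**
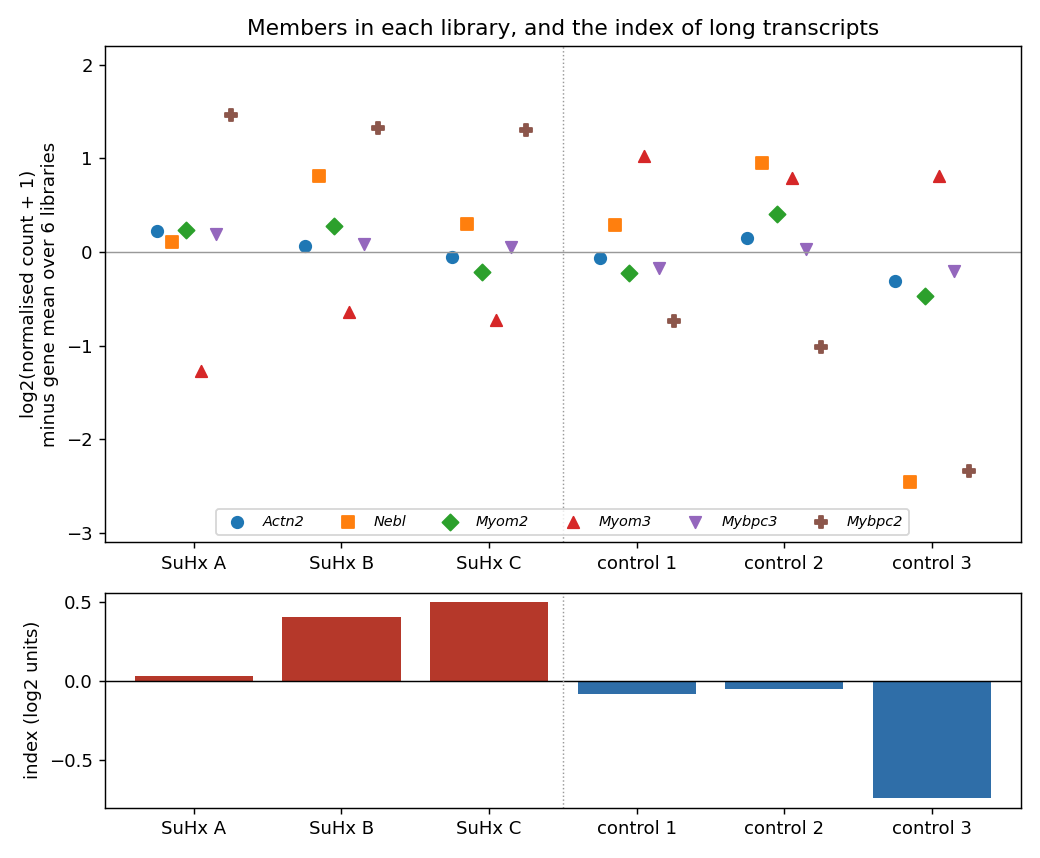
Upper panel, log2(normalised count + 1) of each scaffold gene minus its mean over the 6 libraries (vertical axis, log2 units) in SuHx A to C and controls 1 to 3. Lower panel, the index of long transcripts (log2 units) in the same libraries, lowest in control 3 at -0.74, where Nebl and Mybpc2 are also lowest.

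The direction of the 2 called genes held in every one of 17 alternative settings. The log2 fold change of Mybpc2 ranged from 2.23 to 3.04 and passed the threshold in 12 settings, and that of Myom3 ranged from -2.07 to -1.55 and passed in 15. Without a mean-variance trend, Mybpc2 had an adjusted p of 0.0517 in limma and Myom3 one of 0.0317. Those of Actn2, Nebl, Myom2 and Mybpc3 ranged across 0 and passed in no setting.

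**Figure D3:**
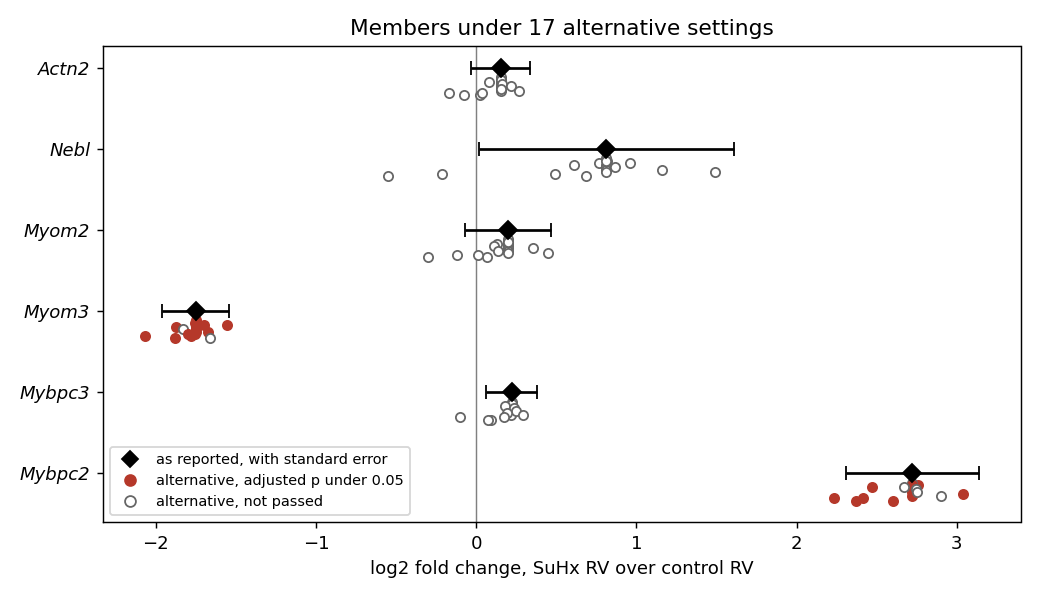
Log2 fold change, SuHx over control (horizontal axis), of each scaffold gene as reported (diamond, with standard error) and under 17 alternatives (circles, filled where the adjusted p is under 0.05). Myom3 stays between -2.07 and -1.55 and Mybpc2 between 2.23 and 3.04, while the circles of Actn2, Nebl, Myom2 and Mybpc3 lie on both sides of 0.

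Genes whose products bind or neighbour these scaffolds were described from lists by location. Of 71 tested partners, 9 were called higher, 2 lower and 60 did not pass, or 15.5% called against 2.22% of all tested genes. Their median log2 fold change was 0.32, against 0.0095 over all tested genes. The 41 long-transcript genes of the index had a median of 0.44, with 1 called higher and 0 lower. The part of transcript length in the partner values was not tested. Calls were most frequent among partners at the Z-disc and I-band, with 7 of 25 higher, 0 lower (none lower at an unadjusted p under 0.05 either) and a median of 0.98. The lists were drawn up with results of these data known, and the counts describe them. Without SuHx A, SuHx B or SuHx C, the calls of higher partners fell to 3, 3 and 1, and those of lower partners were 0, 1 and 0. Without control 1, control 2 or control 3, there were 6, 8 and 11 higher and 1, 0 and 3 lower.

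Among the Z-disc and I-band partners, the 4 called genes with the largest change were Fhl1, Ankrd23, Xirp2 and Ankrd1, all higher in SuHx RV. Ankrd23, a muscle ankyrin repeat protein of the titin N2A region, reached 2279, 822 and 856 normalised counts in the SuHx libraries A, B and C, against 38.0, 75.0 and 43.9 in controls 1, 2 and 3 (log2 fold change 4.52, limma adjusted p = 0.00709). Its relative Ankrd1 stood at 106485, 71886 and 79319 in SuHx, against 25556, 25792 and 13499.5 in control (log2 fold change 2.03, limma adjusted p = 0.0252). Fhl1, a LIM protein that binds titin, stood at 7521, 2331 and 1778 in SuHx, against 101, 126 and 33.9 in control (log2 fold change 5.36, limma adjusted p = 0.0125). The groups did not overlap for any of these, and SuHx A was the highest library for each. Xirp2, an actin-binding repeat protein, stood at 40035, 24107 and 30624 in SuHx, against 3340.2, 4321 and 2091 in control (log2 fold change 3.31, limma adjusted p = 0.00568). The other called partners there were the filamin gene Flnc (1.66), the small heat shock protein gene Hspb7 (1.43) and the PDZ-LIM gene Pdlim5 (1.31), which lay outside the rule for naming genes and were named after their values were seen. Ankrd23 passed without each library in turn, whereas Fhl1 (adjusted p = 0.0581) and Xirp2 (adjusted p = 0.0501) missed the threshold without SuHx C. With any single SuHx library left out, Ankrd1 (adjusted p of 0.0672 to 0.114), Flnc (0.0625 to 0.127), Hspb7 (0.0604 to 0.0964) and Pdlim5 (0.0964 to 0.104) missed it. Flnc also missed it without control 2 (adjusted p = 0.0524), and Hspb7 (adjusted p = 0.0544) and Pdlim5 (adjusted p = 0.0558) without control 1.

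Among M-band and titin-kinase partners, 1 of 13 was higher and 0 were lower (2 lower at an unadjusted p under 0.05 in limma), with a median log2 fold change of 0.27. The called gene was Alpk3, an α-kinase gene of heart muscle, at 6402, 6531 and 7352 normalised counts in SuHx, against 2699.8, 2468 and 1177 in control (log2 fold change 1.76, limma adjusted p = 0.0376). Each SuHx library lay above each control, and control 3 was the lowest. The call ended without SuHx A, SuHx B, SuHx C or control 2 (adjusted p of 0.0717 to 0.164).

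Of 9 thick filament partners, 0 were higher (1 at an unadjusted p under 0.05 in limma) and 1 was lower, with a median of -0.20. That median takes in the atrial genes Mybphl (log2 fold change -3.25), Myl4 (-1.86) and Myl7 (-1.58), none of them called. They stood at 1028, 9629 and 1353 in control 1 and at no more than 58.1 in any other library, so their negative values rest on control 1. The gene higher only by the unadjusted p was Myh7, a myosin heavy chain gene named after its values were seen. It stood at 251482, 221958 and 149937 normalised counts in SuHx, against 25922, 88972 and 38511 in control, without overlap (log2 fold change 2.19, limma adjusted p = 0.063). Myh6, the α-myosin heavy chain, stood at 141675, 131261 and 173603 normalised counts in SuHx, against 376706, 386592 and 320910 in control (log2 fold change -1.29, limma adjusted p = 0.0427). The call ended without each library other than control 3 (adjusted p of 0.0967 to 0.181). Of 13 thin filament partners, 1 was higher and 1 lower. Acta1, the skeletal α-actin, stood at 72990.3, 21077 and 23787 in SuHx, against 1592, 6589 and 2766 in control (log2 fold change 3.43, limma adjusted p = 0.0403). SuHx A stood well above SuHx B and C, and the call ended without each library other than control 2 (adjusted p of 0.0581 to 0.142). Tmod4, a tropomodulin that caps thin filaments in skeletal muscle, stood at 69.1, 85.4 and 49.6 in SuHx, against 186, 269 and 218 in control (log2 fold change -1.72, limma adjusted p = 0.0223). Its call ended without SuHx A, SuHx C or control 2 (adjusted p of 0.0670 to 0.0874).

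Of 11 genes for the splicing and proteolysis of titin, 0 were called in limma, with 1 each higher and lower by an unadjusted p under 0.05 and a median of 0.069. Rbm20, the splicing regulator of titin, stood at 2085, 1996 and 1932 normalised counts in SuHx, against 1520, 1745 and 994 in control (log2 fold change 0.54, limma adjusted p = 0.268). Mmp2, a gelatinase, had a log2 fold change of 0.018 (limma adjusted p = 0.971). Both were named as the most abundant of the list.

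**Figure D4:**
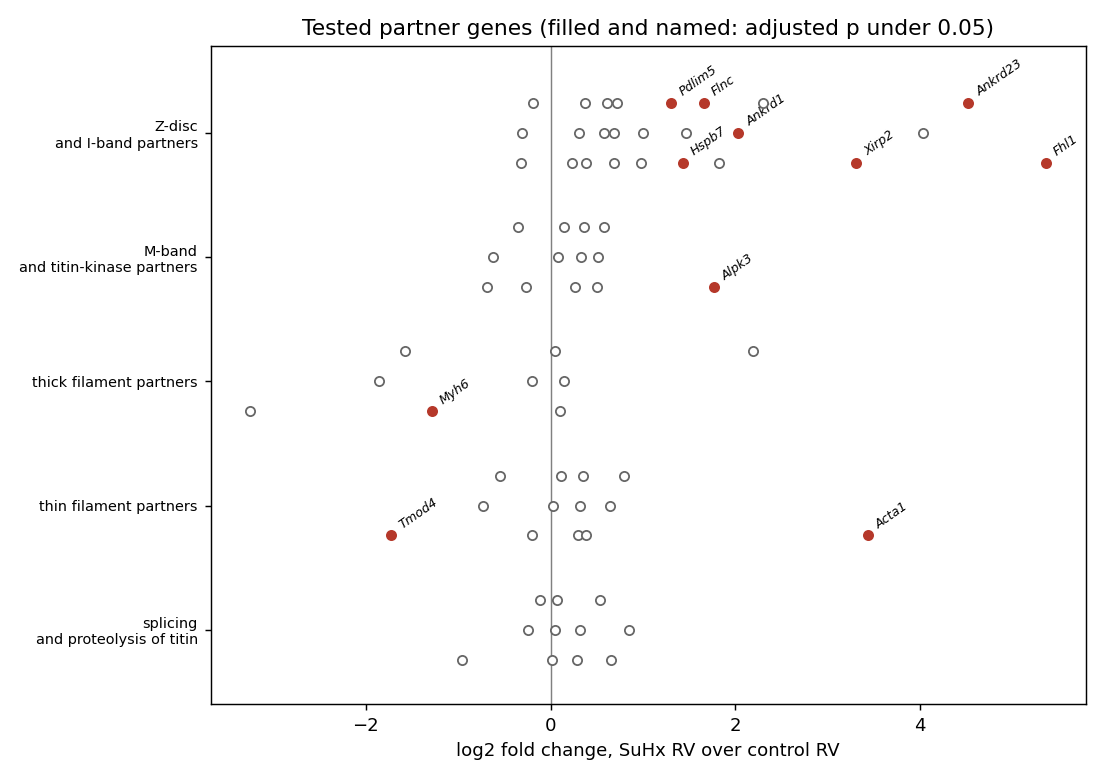
Log2 fold change, SuHx over control (horizontal axis), of the 71 tested partner genes (points) by list (rows, points spread vertically for legibility), with genes at an adjusted p under 0.05 filled and named. The 7 named Z-disc and I-band partners lie between 1.31 and 5.36, and the 2 named lower genes are Myh6 at -1.29 and Tmod4 at -1.72.

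Mybpc2 and Acta1, which were higher, and Myom3 and Tmod4, which were lower, are all best known from skeletal muscle, so markers of that tissue were examined. Of 18 listed, 9 were in the table, 4 passed the filter, and 0 were called in limma (1, Casq1, had an unadjusted p under 0.05). Their summed level was 807, 684 and 505 normalised counts in the SuHx libraries A, B and C, against 441, 410 and 333 in controls 1, 2 and 3, most of it from the calcium-binding protein gene Casq1. Casq1 stood at 717, 594 and 402 in SuHx, against 365, 356 and 261 in control. The groups did not overlap in the sum. The other 8 markers in the table were scarcer and did not move alike. The fast troponin gene Tnnt3 stood at 33.01, 32.9 and 53.9 in SuHx, against 46.2, 24.2 and 47.5 in control, and the groups overlapped. Without overlap and at low levels, Myl1 was at 18.9, 20.05 and 9.59 in SuHx, against 8.93, 6.29 and 7.07 in control, Tnni2 at 3.37, 7.67 and 3.76, against 0, 2.07 and 0.96, and Myh3 at 10.03, 4.29 and 10.5, against 3.37, 0 and 0. Of these, Myl1 was tested and did not pass (limma adjusted p = 0.378), and Tnni2 and Myh3 were below the filter. Tnnt1 and Myh2 overlapped, with at most 20.4 in any library. Mylpf, lower without overlap, was at 0, 0.87 and 0 in SuHx, against 1.11, 1.04 and 4.03 in control, and Atp2a1 at 0, 0 and 2.87 in SuHx, against 0, 3.13 and 3.06 in control. Of the other marker lists, 1 of 8 fibroblast markers, Postn, was called higher in limma. Another, Tcf21, was lower at an unadjusted p under 0.05 (log2 fold change -0.93), and the median log2 fold change of that list was 0.037. None of the 6 endothelial, 5 smooth muscle and pericyte or 5 leukocyte markers was called in limma (0 also at an unadjusted p under 0.05). The part of cell composition in the scaffold values was not tested.

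The genes with the most similar pattern over the 6 libraries were found by the root mean square difference of centred log2 values, among genes with a mean of at least 50. Mybpc2 was closest to Npr3, a natriuretic peptide receptor gene (0.26, log2 fold change 2.36). Myom3 was closest to Cd1d1 (0.15, log2 fold change -1.73) and to Ehhadh, a peroxisomal enzyme of fatty acid oxidation (0.17, log2 fold change -1.62). Both genes were taken up here after their values were seen, and similarity over 6 libraries in 2 groups rests mostly on the group difference.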

How the data were processed

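Total RNA of 3 SuHx and 3 control RV samples was sequenced. Per the submitters' notes, reads were quantified with Salmon 0.14.1 and DESeq2 1.24.0. The deposited signal is the DESeq2-normalised count of each gene in each library, without pooling. The sources name a mouse index, but the table holds 285 RGD and 529 LOC names, so which index was used is not settled. A row without a gene name (0.00143% to 0.00514% of each total) was left out. Of the values below 12 in a library, 92.5% to 96.9% fell on multiples of 1 step (tolerance 0.1). The step was 0.776, 0.865 and 0.952 in SuHx A, B and C, and 1.113, 1.038 and 1 in controls 1, 2 and 3. Since not all values fell on a step, whole reads were not recovered and no count model was run. The methods state a read depth per sample, and the depth reached in each library is not given.

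The 10725 genes averaging 10 or more over all 6 libraries were tested on log2(normalised count + 1) with limma 3.58.1 (R 4.3.3, mean-variance trend, two-sided, no covariates). Figures were drawn with matplotlib 3.10.9. The procedure was tested on simulated data. Members and lists were chosen with earlier results of these data known. Named genes were the 6 scaffold genes, up to 4 called genes of each partner list with the largest change or, with none called, the 2 of highest mean, and genes describing single libraries. The planned nearest patterns of Ttn and Tcap and ratios with Ttn, Tcap and Myom1 were not computed, and ratios were adjusted over the 3 that were. Alternatives covered the pseudocount, filter, scaling (trimmed mean of M values, median of ratios, equal totals), trend, moderation and libraries left out, and the criteria of the study's methods were added after the data were examined.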

Additional observations from a re-analysis of the deposited data

How the results depend on the processing

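With each library left out in turn, calls over all genes ranged from 11 to 266 higher and from 6 to 136 lower, calls of scaffold genes from 0 to 1 in each direction, and calls of partner genes from 1 to 11 higher and from 0 to 3 lower. After scaling to equal totals, 90 genes were called higher and 191 lower, 5 partners were lower, and the median log2 fold change over all tested genes was -0.31, against 0.0095 as reported. The log2 fold changes of Actn2 (-0.17), Mybpc3 (-0.10), Myom2 (-0.12) and Mmp2 (-0.30) were then negative. Each lay above that median, Mmp2 narrowly (-0.302 against -0.309). At the same total without mitochondrial transcripts, 109 genes were lower, the median was -0.12, and Mmp2 was at -0.11. Without a filter, 1 partner was lower. Dropping the mean-variance trend gave 83 higher and 38 lower genes, 0 scaffold genes were higher and 4 partners were higher. Without controls 1 and 3 together, 97 genes were higher and 8 lower, 0 scaffold genes were lower, 2 partners were higher and 0 lower, and Actn2 (-0.075), Myom2 (-0.30) and Nebl (-0.55) were negative. At an adjusted p under 0.01 with a fold above 2, added after the data were examined, 27 genes were higher and 2 lower, 0 scaffold genes were called in either direction, and 2 partners were higher and 0 lower. Without control 3, Nebl (-0.21), Mmp2 (-0.14) and the log2 ratio of Nebl to Actn2 (-0.25) changed sign, and over all libraries left out in turn they ranged from -0.21 to 1.49, from -0.14 to 0.21 and from -0.25 to 1.22. Mmp2 also did so without SuHx C (-0.07) and without control 2 (-0.01). Beyond fewer libraries, the cause was not tested.

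Mybpc2 and Myom3 kept their direction in all 17 settings. The index of long transcripts, run under 8 settings (2 pseudocounts and each library left out), kept its direction in those (0.37 to 0.74 with a library left out). The corrections by protein length were not run, since no protein lengths were used here. No paired analysis was possible because the SuHx columns carry no replicate number.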
